A study of Homo sapiens with 72 samples.

Results

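Ferritin and the genes that move iron into, through and out of the cell were followed in dermal fibroblasts treated with omaveloxolone. The 9 genes, taken by symbol from the identifiers of the count table, were FTL, FTH1, SLC40A1, TFRC, IREB2, ACO1, SLC11A2, SLC25A37 and NCOA4, of 23170 genes counted. All 9 passed the filter on low counts, as did 14259 genes in all. The cells were wildtype normal human dermal fibroblasts, which are primary cells of skin connective tissue, and they stood for 24 hours in 384-well format with the compound or its solvent DMSO. The compound, a triterpenoid, acts on KEAP1 and thereby spares the transcription factor NRF2 from degradation. DMSO was given to 32 wells, against 16 named in the protocol, and 10 doses had 4 wells apiece: 0.0005, 0.002, 0.005, 0.014, 0.04, 0.12, 0.37, 1.11, 3.33 and 10 µM. RNA was read by DRUG-seq, which tags the 3′ ends of polyadenylated RNA with a well barcode. The labels number the wells of a group as biological replicates, but nothing says that they came from separate cultures or donors. P-values therefore measure only the spread between wells, which may be technical.

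Iron reaches most cells bound to transferrin, whose receptor is the product of TFRC, and leaves the endosome through the transporter encoded by SLC11A2. Ferritin, a hollow shell of heavy chains (FTH1) and light chains (FTL), stores iron in the cytosol, and NCOA4 is the receptor that carries ferritin to autophagy so that the iron is released. SLC25A37 (mitoferrin-1) imports iron into mitochondria, and SLC40A1 (ferroportin) is the exporter of iron from the cell. The iron regulatory proteins encoded by ACO1 and IREB2 bind a hairpin in certain mRNAs, the iron-responsive element. Bound at the 5′ end the hairpin blocks translation, and bound at the 3′ end it protects the mRNA from decay. FTL, FTH1 and SLC40A1 are also known targets of NRF2.

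The hairpins are shown because they divide the 9 genes into those open to control by the iron regulatory proteins through this element and those without it. The search took an unpaired C, then 5 paired bases, the loop CAGTGN and the 5 bases that pair back, in the transcripts of GENCODE release 29 (GRCh38). Of the 9 genes 4 held such a hairpin in an untranslated region, as did 214 of 19684 protein-coding genes (1.09%). Capitals mark the unpaired C and the 6 bases of the loop.
FTL, 5′ untranslated region, chr19:48965335-48965364, plus strand: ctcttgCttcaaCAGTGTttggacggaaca
FTH1, 5′ untranslated region, chr11:61967573-61967602, minus strand: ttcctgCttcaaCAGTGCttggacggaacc
SLC40A1, 5′ untranslated region, chr2:189580660-189580689, minus strand: caacttCagctaCAGTGTtagctaagtttg
TFRC, 3′ untranslated region, chr3:196050978-196051007, minus strand: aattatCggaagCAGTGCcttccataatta
TFRC, 3′ untranslated region, chr3:196050574-196050603, minus strand: cattatCgggagCAGTGTcttccataatgt
TFRC, 3′ untranslated region, chr3:196050509-196050538, minus strand: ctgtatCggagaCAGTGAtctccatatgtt
TFRC, 3′ untranslated region, chr3:196050462-196050491, minus strand: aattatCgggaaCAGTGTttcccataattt
The ferritin and ferroportin elements each lie in 1 exon before the coding region, and TFRC carries 4 of them in 1 exon behind its coding region. IREB2, ACO1, SLC11A2, SLC25A37 and NCOA4 had no match to this form of the element, which says nothing about other forms. Counts of mRNA do not show translation, the step that the 5′ elements control.

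The depth of the wells changed strongly at the top doses, which limits what can be said of the less abundant genes. DMSO wells held 4910790 to 8685413 counts and wells up to 0.37 µM held 4173793 to 10386621. At 1.11, 3.33 and 10 µM the means were 1565622, 169669 and 30831 counts. In such lysates fewer cells and less RNA per cell cannot be told apart. The 10 fibroblast markers were all measured in DMSO, with a summed level of 67503 to 81730 CPM (counts scaled to a common library size, with TMM factors between wells). Their sum was 33773 to 37939 CPM at 0.37 µM, where all 10 were called lower. At 1.11 µM, where 3 were called higher and 3 lower, it ran from 66769 to 79409 CPM. At 3.33 µM the markers summed to 62274 to 77935 CPM. At 10 µM, where all 10 were again called lower, they summed to 17443 to 23370 CPM. In DMSO the summed levels of the melanocyte, endothelial, macrophage and erythroid lists stayed at or below 3.02, 5.36, 10.6 and 7.83 CPM. Of the keratinocyte list only KRT10 was counted, at 325 to 570 CPM in DMSO. What part these shifts have in the results below was not tested.

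Up to 0.12 µM every call among the 9 genes was a rise, and the genes that rose were the ferritin chains and the exporter. Each dose was compared with DMSO by the quasi-likelihood test of edgeR over all 14259 genes, with Benjamini-Hochberg adjustment and a threshold of 0.05. The doses share their DMSO wells. None of the 9 was called at 0.0005 µM (0.00701% of all genes were, all of them higher), where the unadjusted p was under 0.05 for FTL alone. FTL alone was called higher at 0.002 µM (0.0561% of all genes were called, all higher) and at 0.005 µM (0.0771%, with 0.0631% higher and 0.0140% lower). FTL and FTH1 were called higher at 0.014 µM (0.217%, with 0.203% higher and 0.0140% lower), and FTL, FTH1 and SLC40A1 at 0.04 µM (0.792%, with 0.603% higher and 0.189% lower) and 0.12 µM (2.33%, with 1.31% higher and 1.02% lower). At 0.37 µM FTL, FTH1 and NCOA4 were called higher and ACO1 lower (24.8%, with 11.2% higher and 13.6% lower). At 1.11 µM TFRC was called higher and FTL, FTH1 and IREB2 lower (23.0%, with 9.77% higher and 13.2% lower). The counts at 3.33 and 10 µM were 6 and 5 genes lower and 0 higher. Of all genes 40.2% were called at 3.33 µM, 7.35% higher and 32.9% lower, and 35.2% at 10 µM, 3.35% higher and 31.8% lower. The median log2 change of the 9 genes was 0.35 at 0.12 µM and 0.24 at 0.37 µM, beside -0.07 and -0.14 for all genes tested. At 3.33 and 10 µM it was -1.92 and -3.05, beside -2.32 and -5.51 for all genes tested.

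**Figure D1:**
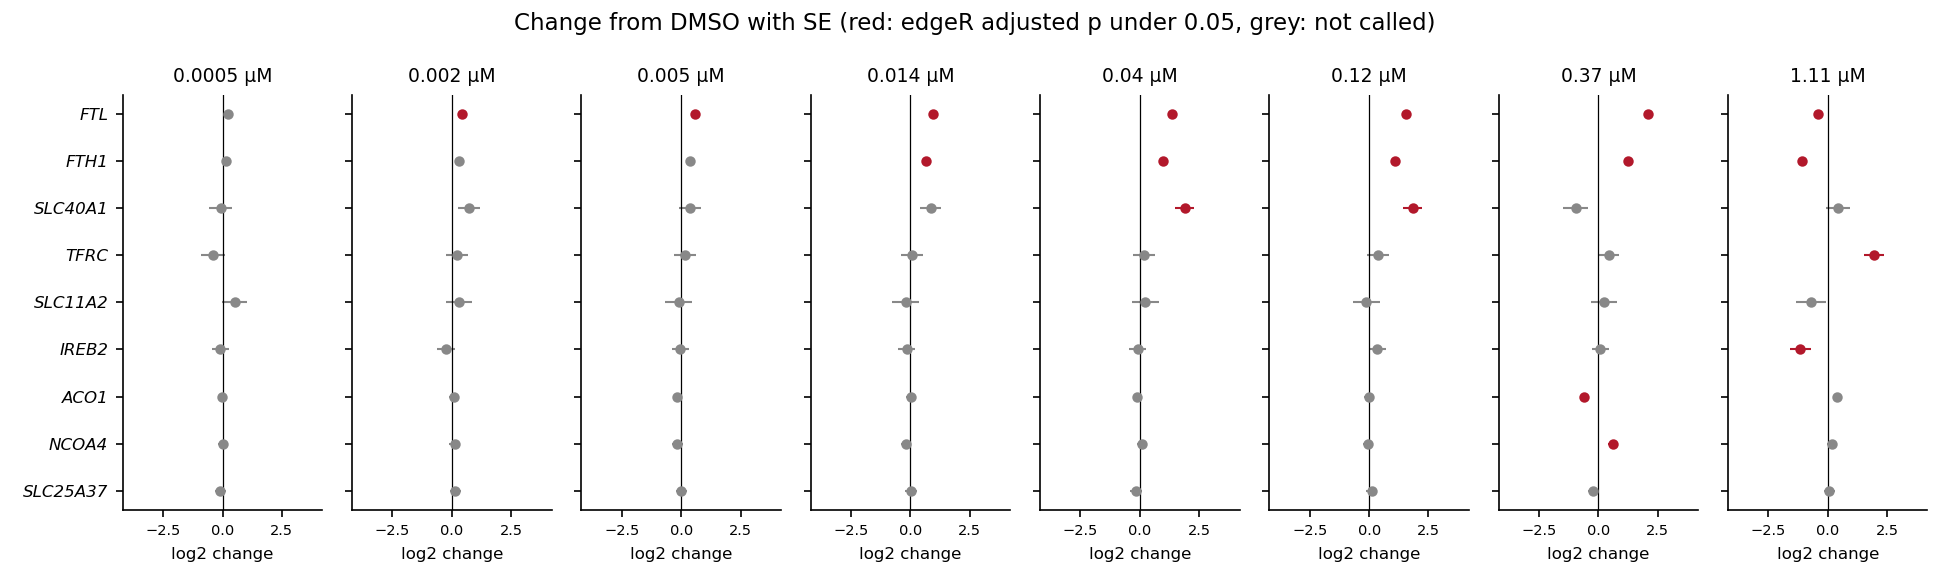
Fitted log2 change from DMSO (horizontal axis) of each of the 9 genes at 8 doses up to 1.11 µM, 1 panel a dose, with the standard error as a bar. Red points were called by edgeR at an adjusted p under 0.05 and grey points were not. The FTL point moves to the right from panel to panel up to 0.37 µM, where it stands at 2.11, and lies left of 0 at 1.11 µM.

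FTL, the light chain, had the most counts of the 9 genes and rose over the widest range of doses. It lies on chromosome 19 (48965301 to 48966878, plus strand). In DMSO its level was 16193 CPM in the lowest well, 20004 at the median and 22597 in the highest. The 4 wells read 32835, 24514, 27458 and 22079 CPM at 0.002 µM, where 3 of them lay above every DMSO well. From 0.005 to 0.37 µM all 4 wells of each dose lay above every DMSO well. They read 35580, 43434, 33266 and 41222 CPM at 0.014 µM, 53901, 61366, 52501 and 64293 CPM at 0.12 µM, and 83871, 84126, 87431 and 88506 CPM at 0.37 µM. The fitted log2 change was 0.42 (SE 0.08, edgeR adjusted p = 0.0021) at 0.002 µM, 0.94 at 0.014 µM, 1.54 at 0.12 µM and 2.11 (SE 0.07, adjusted p = 1.95e-41) at 0.37 µM, a 4.31-fold level. At 0.0005 µM the wells read 28398, 20665, 25592 and 19472 CPM, a log2 change of 0.24 that was not called. Leaving out replicate 1 of 0.002 µM ended the call there (log2 change 0.31, edgeR adjusted p = 0.47). Replicates 1 and 3 of both doses, the higher wells, sat on the left side of the plate and replicates 2 and 4 on the right. Fitted against the DMSO column of its own side, FTL had a log2 change of 0.37 on the left (adjusted p = 0.0035) and 0.08 on the right at 0.0005 µM, and of 0.53 (adjusted p = 3.24e-06) and 0.29 at 0.002 µM. Neither value on the right was called, and the part of plate side in these small changes was not tested.

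The rise of FTL ended between 0.37 and 1.11 µM. At 1.11 µM the wells held 16026, 13098, 15543 and 14841 CPM, all below the lowest DMSO well. The log2 change was -0.42 against DMSO (edgeR adjusted p = 5.94e-05) and -2.53 (SE 0.11, adjusted p = 6.66e-31) against 0.37 µM. HMOX1, which encodes heme oxygenase-1 and is a reference gene of the NRF2 response, was still high at 1.11 µM, while NQO1, a quinone reductase gene and another such reference, was back at its DMSO level. HMOX1 stood at 15927 ± 1507 CPM at 0.37 µM and 14554 ± 4504 CPM at 1.11 µM (SD, n = 4), against 439.6 ± 62.9 CPM in DMSO (n = 32). NQO1 stood at 5573 ± 72.6 CPM at 0.37 µM and 410.0 ± 159 CPM at 1.11 µM, against 419 ± 45.2 CPM in DMSO. Its log2 change at 1.11 µM was -0.03 (edgeR adjusted p = 0.90).

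FTH1, the heavy chain with the ferroxidase activity, was called higher from 0.014 to 0.37 µM, with smaller log2 changes than FTL at each of these doses. It lies on chromosome 11 (61959718 to 61967660, minus strand). In DMSO its level ran from 834 to 1212 CPM with a median of 1002. The wells read 1420, 1727, 1475 and 1730 CPM at 0.014 µM, 2127, 2321, 2132 and 2087 CPM at 0.12 µM, and 2629, 1851, 2690 and 2473 CPM at 0.37 µM. From 0.014 to 0.37 µM no treated well overlapped the DMSO wells. Against DMSO the log2 change was 0.66 (SE 0.12, edgeR adjusted p = 0.0012) at 0.014 µM, 0.99 at 0.04 µM, 1.10 at 0.12 µM and 1.26 (SE 0.12, adjusted p = 1.07e-14) at 0.37 µM, a 2.39-fold level. At 0.005 µM it was 0.38 and not called (adjusted p = 0.85), with 3 of 4 wells above every DMSO well. At 1.11 µM FTH1 fell to 571, 476, 369 and 507 CPM, a log2 change of -1.07 from DMSO (SE 0.15, edgeR adjusted p = 1.90e-08).

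**Figure D2:**
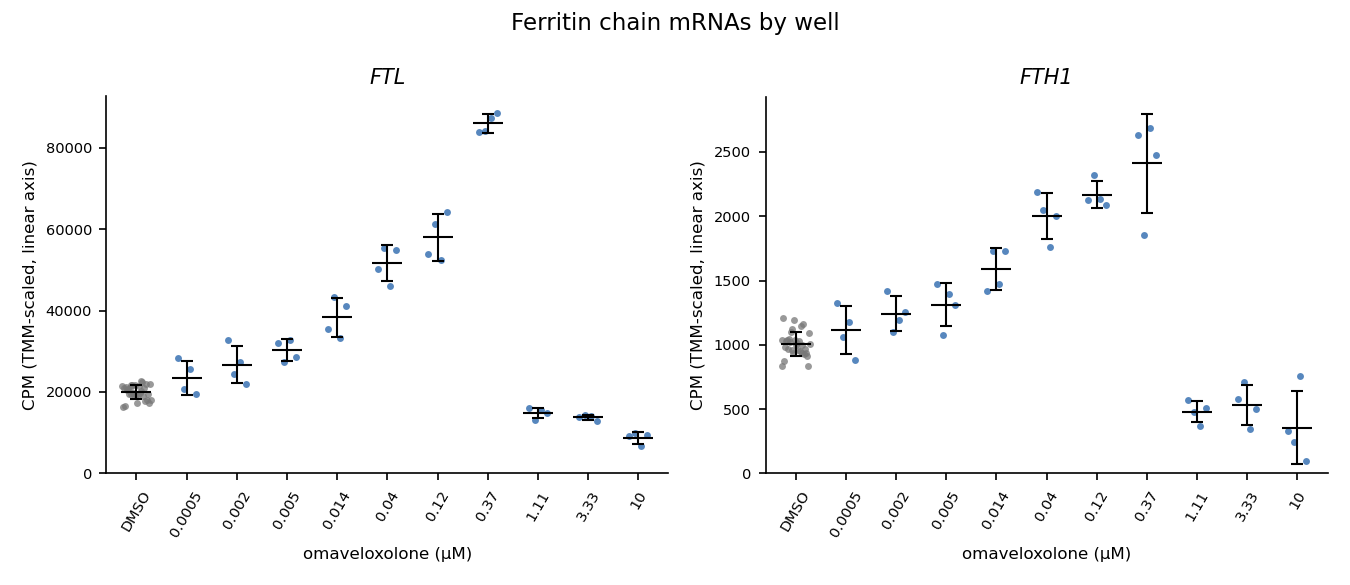
Levels of FTL (left) and FTH1 (right) in CPM on linear axes that start at 0, by dose of omaveloxolone. Each point is 1 well (grey, 32 DMSO wells; blue, 4 wells a dose), and black marks are the mean and SD. FTL climbs from a mean of 19964 CPM in DMSO to 85984 CPM at 0.37 µM, and both genes lie below their DMSO wells at 1.11 µM and above.

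Among the treated wells alone, FTL and FTH1 rose along the doses, which is also the order of the plate columns on each side. On each plate side the column number fell as the dose rose, from columns 12 and 22 at 0.0005 µM to 6 and 16 at 0.37 µM. Within a plate side, dose and column order thus cannot be told apart in these wells. A slope on log10 dose was fitted with edgeR to the 28 wells from 0.0005 to 0.37 µM. This range was chosen with earlier results of these data known, and it ends at the dose where FTL and FTH1 had their highest means. Of the 9 genes 2 were called, both upward, where 19.9% of 13056 genes tested were called, 10.6% upward and 9.33% downward. The log2 level rose by 0.65 (SE 0.04, adjusted p = 3.35e-16) for FTL and 0.42 (SE 0.04, adjusted p = 3.94e-11) for FTH1 for each unit of log10 dose. SLC40A1 had a slope of 0.38 that was not called (adjusted p = 0.24), and without the 0.37 µM wells its slope was 0.84 and was called (adjusted p = 7.71e-05). None of the 9 differed between neighbouring doses up to 0.12 µM, where 0 to 0.0140% of all genes did. Among those comparisons up to 0.12 µM only FTL had an unadjusted p under 0.05, in 2 of the 5 steps. A log-logistic curve over the same wells placed the half-maximal dose of FTH1 at 15.5 nM (95% interval 7.13 to 33.7). Without replicate 2 it was 65.2 nM. For FTL the same curve gave 257 nM with an interval wider than the range of doses on both sides, so no midpoint could be placed.

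FTL gained on FTH1 as the dose rose. The ratio of their counts within a well needs no scaling between wells. In DMSO its log2 value was 4.31 ± 0.12 (SD, n = 32; 4.12 to 4.59), or 19.8 FTL counts to 1 of FTH1. The wells stood at 4.66, 4.72, 4.62 and 4.94 at 0.12 µM, all above every DMSO well, and at 5.00, 5.51, 5.02 and 5.16 at 0.37 µM, or 36.0 to 1 on average. The ratio did not pass the test at 0.0005 and 0.002 µM (exact two-sided permutation test, adjusted p = 0.133 and 0.122). It was higher at the other 8 doses, with an exact adjusted p of 0.0015 at 0.005 µM and 5.66e-05 at 0.12, 0.37 and 1.11 µM, where p = 1.7e-05 is the floor set by 58905 splits. At 1.11 µM, where both chains were below DMSO, it was still 4.97 ± 0.29 (n = 4). At 10 µM the wells read 4.81, 5.37, 3.14 and 6.62 from 6 to 43 FTH1 counts a well, and the pass there (exact adjusted p = 0.022) was lost without replicate 1, 2 or 4, with differences of 0.74, 0.55 and 0.13, and on the right plate side alone the difference was -0.32.

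Together the ferritin chains took a large and growing part of all counts. Their share was 2.04 ± 0.14% in DMSO (n = 32; 1.77 to 2.26%). At 0.0005 µM the wells held 2.70, 2.10, 2.50 and 2.04%, which overlapped DMSO but passed the exact permutation test (adjusted p = 0.0048). Without replicate 1 of that dose the difference was 0.17 percentage points and no longer passed. The test took no account of plate side: on the right side alone, with replicates 2 and 4, the difference was 0.097 percentage points and did not pass (exact permutation test, adjusted p = 0.33). It reached 5.49 ± 0.39% at 0.12 µM and 8.36 ± 0.23% at 0.37 µM (n = 4), with wells at 8.12, 8.20, 8.56 and 8.56%. It fell to 1.30 ± 0.10% at 1.11 µM, below all DMSO wells, and was 1.52 ± 0.17% at 3.33 µM. At 10 µM it was 1.91 ± 0.18%, which did not pass the test against DMSO (exact adjusted p = 0.087).

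**Figure D3:**
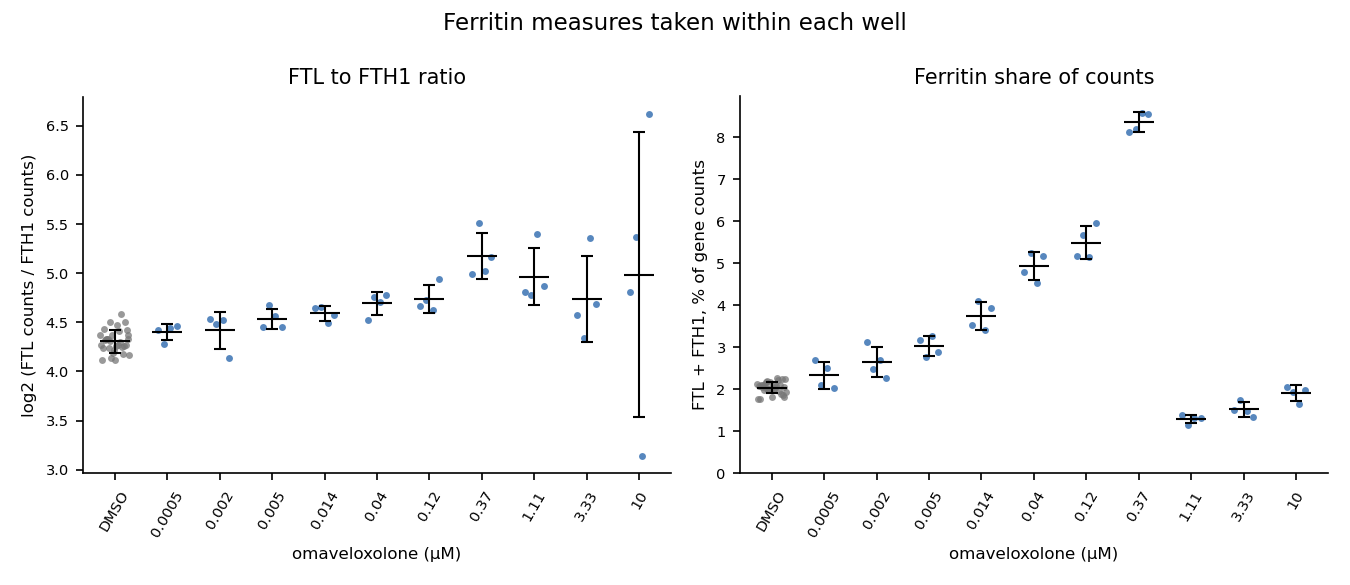
Left, log2 ratio of FTL to FTH1 counts within each well. Right, share of all gene counts held by FTL and FTH1 together, in percent, on an axis that starts at 0. Points are wells, black marks are the mean and SD, and the horizontal axis is the dose with 32 DMSO wells first. The share rises to 8.36% at 0.37 µM and drops to 1.30% at 1.11 µM, while the mean ratio stays above its DMSO value of 4.31 at every dose.

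Both ferritin genes have processed copies elsewhere in the genome that can share reads with them. In the last 400 bases of the mRNA, 27.0% of the 31-base words of FTL and 18.6% of those of FTH1 also occurred in other annotated genes, all of them ferritin copies, and 0% did for the other 7 genes. The 19 counted FTH1 copies summed to 44.2 ± 13.9 CPM in DMSO (n = 32) and took 4.35% as many counts as FTH1. The 12 FTL copies summed to 5.56 ± 2.24 CPM, 0.0276% of the FTL count. The copies with the highest levels were FTH1P15 and FTLP3. FTH1P15 went from 20.5 ± 10.6 CPM with DMSO to 44.9 at 0.37 µM, and FTLP3 from 4.29 ± 2.05 to 14.9. Copies and parents thus cannot be cleanly told apart in these counts. The size of the FTL to FTH1 ratio is uncertain for that reason, and only its change between wells is compared here.

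SLC40A1, the gene of the iron exporter ferroportin, rose at 0.04 and 0.12 µM and was back within the range of the DMSO wells at 0.37 µM. It lies on chromosome 2 (189560579 to 189583758, minus strand). In DMSO its level was 0.950 CPM in the lowest well, 14.3 at the median and 39.5 in the highest. The wells read 43.6, 54.8, 74.7 and 62.2 CPM at 0.04 µM and 63.9, 39.8, 75.1 and 49.4 CPM at 0.12 µM, all above the highest DMSO well. The log2 change was 1.88 (SE 0.41, edgeR adjusted p = 0.0034) at 0.04 µM and 1.84 (SE 0.41, adjusted p = 0.0022) at 0.12 µM. At 0.37 µM the wells held 17.0, 8.18, 2.85 and 4.91 CPM, within the DMSO range, and the log2 change was -0.95 (adjusted p = 0.18).

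The drop of SLC40A1 from 0.12 to 0.37 µM was 2.79 on the log2 scale (SE 0.68, edgeR adjusted p = 0.0032), in wells that do not overlap. In that comparison 8.13% of all genes were called, 2.52% higher and 5.60% lower, and of the 9 genes only FTL was called besides, upward (log2 change 0.57, SE 0.11, adjusted p = 7.62e-05). Without replicate 3 the drop was 2.34 with an adjusted p of 0.058. The call at 0.04 µM also depended on replicate 3 of that dose, with a log2 change of 1.74 and an adjusted p of 0.053 without it. At 1.11 µM the wells read 75.8, 1.49, 9.25 and 0 CPM. Without replicate 1, the well at 75.8 CPM, SLC40A1 was called lower than DMSO at this dose (log2 change -2.22, edgeR adjusted p = 0.012).

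TFRC, the transferrin receptor, was called against DMSO at 1.11 µM and at no other dose. It lies on chromosome 3 (196027183 to 196082189, minus strand). In DMSO it ran from 2.03 to 29.7 CPM with a median of 11.7. Group means from 0.0005 to 0.37 µM lay between 10.1 and 18.0 CPM, and none was called (edgeR adjusted p of 0.53 or more). At 1.11 µM the wells read 72.7, 70.1, 2.52 and 61.2 CPM. There 3 of 4 wells lay above every DMSO well and the fourth lay within the DMSO range. Against DMSO the log2 change was 1.95 (SE 0.41, edgeR adjusted p = 1.88e-04). The call was lost when only the DMSO wells in rows K and L served as reference (1.93, adjusted p = 0.10) and with replicate number as a block (2.11, adjusted p = 0.095). From 11 to 208 counts stood behind each DMSO value, and 281 counts behind the 4 wells at 1.11 µM. At 3.33 µM TFRC was not called, but it was called lower without replicate 1 (edgeR adjusted p = 0.011), which left 0 counts, so no fold is given.

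SLC11A2, which encodes the endosomal iron transporter DMT1, was not called at any dose. Its place is chromosome 12 (50979401 to 51028566, minus strand). In DMSO it ran from 1.31 to 32.6 CPM with a median of 15.0. Group means up to 0.37 µM lay between 13.9 and 22.8 CPM, and the adjusted p of the joint edgeR test over all doses was 0.67. The other 8 genes passed that joint test, as 56.5% of all genes did. Wells of SLC11A2 spread widely: at 0.12 µM they read 19.7, 1.05, 12.3 and 26.3 CPM. Without replicate 2 of 1.11 µM, a well at 35.8 CPM beside 3.09, 0 and 0, SLC11A2 was called lower at that dose (log2 change -3.96, adjusted p = 0.0019).

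Of the 2 iron regulatory protein genes, ACO1 was called lower at 0.37 µM in the main fit and IREB2 was not called up to that dose. ACO1, on chromosome 9 (32384603 to 32454769, plus strand), encodes a protein that doubles as the cytosolic aconitase. It had a median of 124.5 CPM in DMSO (74.9 to 188.1). It read 81.1, 82.8, 62.4 and 100.8 CPM at 0.37 µM, where 1 well lay below every DMSO well and 3 lay within their range. The log2 change was -0.60 (SE 0.19, edgeR adjusted p = 0.016). The call was lost in 8 of 16 alternatives. Among these were the fits without replicate 1, 2 or 3 (adjusted p = 0.051, 0.050 and 0.12). The DESeq2 Wald test did not call it either (log2 change -0.34, adjusted p = 0.12). At 1.11 µM ACO1 read 127.6, 120.1, 247.3 and 154.3 CPM. That was higher than at 0.37 µM (log2 change 0.99, SE 0.25, edgeR adjusted p = 0.0017; without replicate 3, 0.60 and not called) and not called against DMSO (adjusted p = 0.11). In the step from 0.37 to 1.11 µM 25.4% of all genes were called, 12.1% higher and 13.4% lower, and of the 9 genes FTL and FTH1 were lower and ACO1 was higher.

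IREB2 lies on chromosome 15 (78437431 to 78501456, plus strand). It ran from 10.9 to 60.4 CPM in DMSO with a median of 32.0. Group means from 0.0005 to 0.37 µM lay between 27.3 and 41.3 CPM, with an edgeR adjusted p of 0.78 or more. At 1.11 µM the wells read 12.4, 0, 44.6 and 2.72 CPM from 73 counts in all. Against DMSO the log2 change was -1.15 (SE 0.43, adjusted p = 0.042), and the call was lost in 9 of 16 alternatives. Among these were the fits without replicate 1, 2 or 4 (adjusted p = 0.11, 0.21 and 0.21) and the right plate side, where the log2 change was -0.28 (adjusted p = 0.68). Without replicate 3, the well at 44.6 CPM, the log2 change was -2.72 (adjusted p = 5.13e-05).

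NCOA4, the receptor for ferritin breakdown, was higher at 0.37 µM. Its place is chromosome 10 (46005088 to 46030714, minus strand). In DMSO it ran from 60.2 to 126.0 CPM with a median of 99.8. At 0.37 µM it read 142.7, 151.7, 143.3 and 160.9 CPM, all above every DMSO well. The log2 change was 0.63 (SE 0.21, edgeR adjusted p = 0.017), and the call was lost in 6 of 16 alternatives. These were the fits without replicate 2 or 4 of that dose (adjusted p = 0.055 and 0.067), on the left side alone (0.67, adjusted p = 0.11), on the right side alone (0.59, adjusted p = 0.15), against rows K and L (0.89, adjusted p = 0.14) and with the replicate block (0.58, adjusted p = 0.41). At lower doses group means lay between 85.2 and 105.3 CPM and none was called. At 1.11 µM the wells spread from 48.3 to 222.9 CPM.

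SLC25A37, the mitochondrial importer mitoferrin-1, kept near its DMSO level up to 1.11 µM, and no change was called there. Its place is chromosome 8 (23528805 to 23575463, plus strand). It ran from 27.2 to 87.6 CPM in DMSO with a median of 53.1, and group means up to 1.11 µM lay between 46.8 and 60.1 CPM. At 3.33 µM the wells read 5.74, 32.6, 5.62 and 9.58 CPM from 9 counts, a log2 change of -2.09 (SE 0.44, edgeR adjusted p = 8.92e-05). At 10 µM they read 81.5, 134.6, 0 and 94.5 CPM from 21 counts. That was not called against DMSO (log2 change 0.57, adjusted p = 0.24), but was higher than at 3.33 µM (log2 change 2.66, adjusted p = 3.77e-04). Other scalings called it higher than DMSO at 10 µM, with a log2 change of 1.44 under DESeq2 size factors (adjusted p = 0.0048) and 1.65 under library totals (adjusted p = 0.0012). So did the DESeq2 Wald test (1.45, adjusted p = 0.0010), the left plate side (1.22, adjusted p = 0.035) and the fit without replicate 3 (0.95, adjusted p = 0.043).

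**Figure D4:**
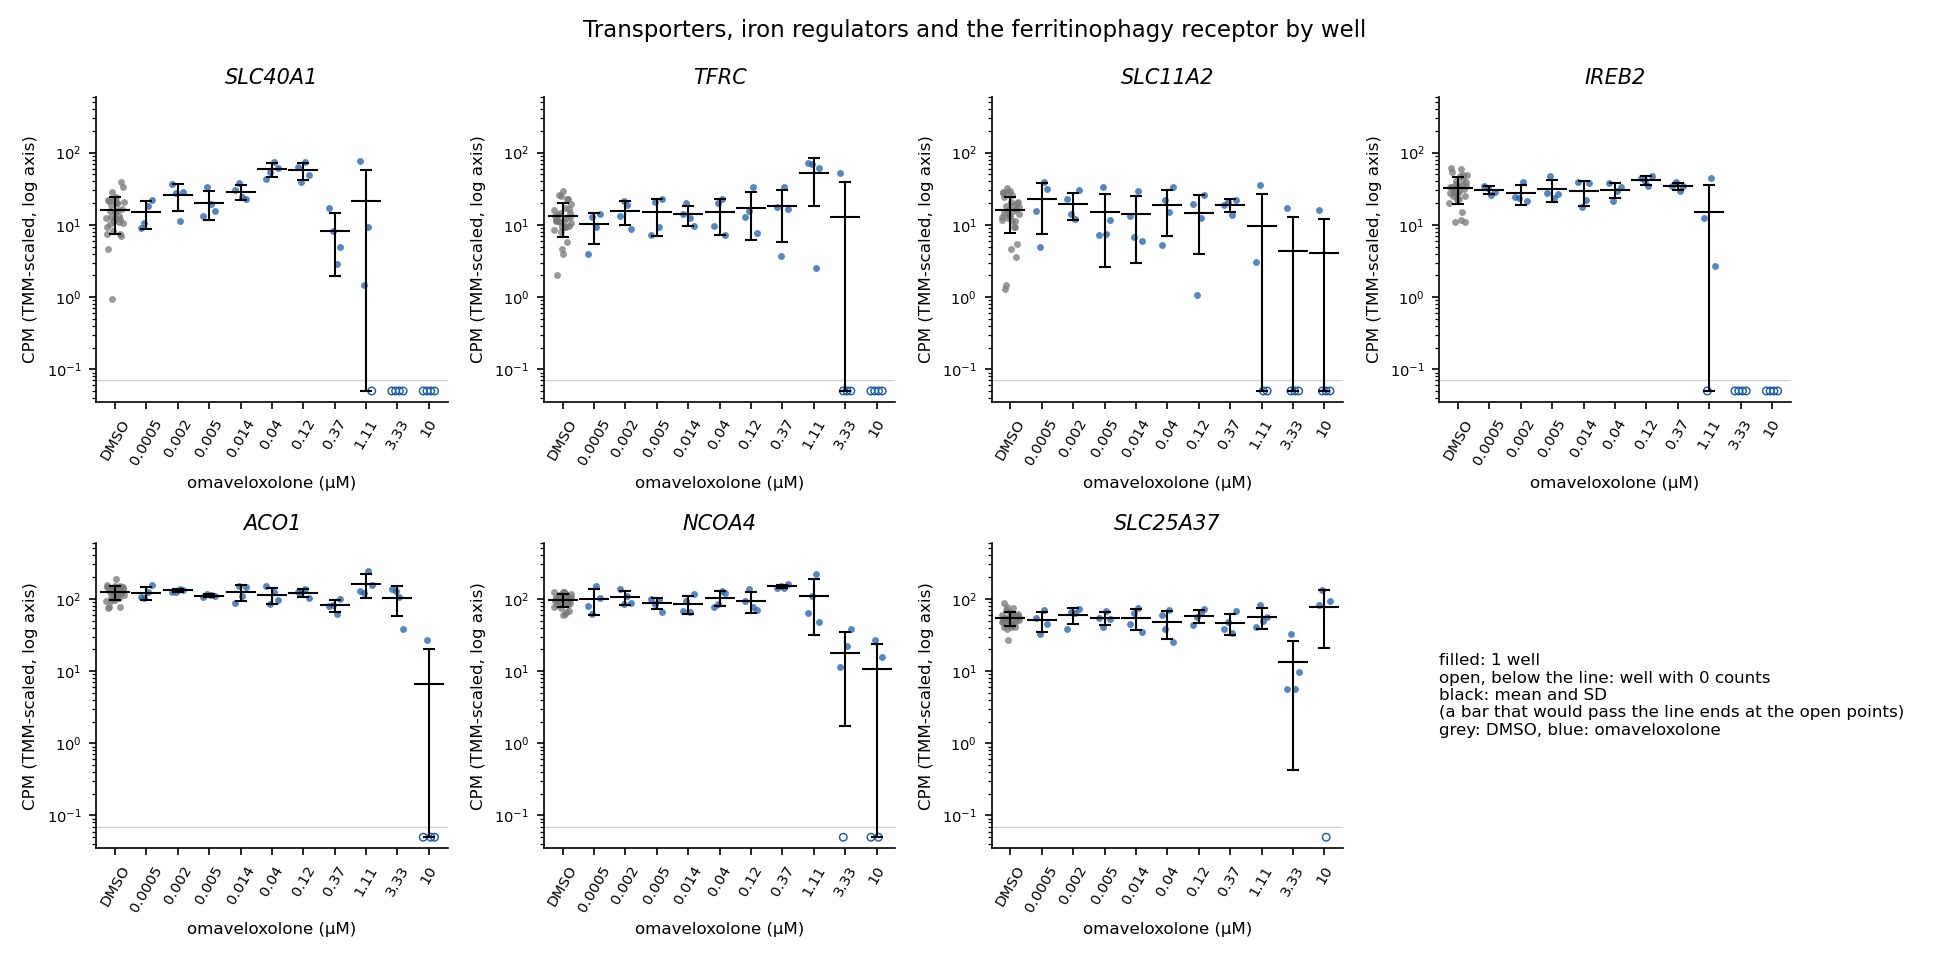
Levels of SLC40A1, TFRC, SLC11A2, IREB2, ACO1, NCOA4 and SLC25A37 in CPM on log axes, by dose. Filled points are wells with a count (grey, DMSO; blue, omaveloxolone), open points below the line are wells with 0 counts, and black marks are the mean and SD, with a bar that would reach 0 or less ending at the open points. All 4 wells of SLC40A1 stand above every DMSO well at 0.04 and at 0.12 µM, and the wells of TFRC, IREB2 and SLC40A1 spread widely at 1.11 µM.

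Between 1.11 and 3.33 µM 5 of the 9 genes were called lower and 0 higher, where 34.8% of all genes were called, 7.13% higher and 27.6% lower. These were SLC40A1, TFRC, IREB2, SLC25A37 and NCOA4. The step of TFRC was -2.02 on the log2 scale (edgeR adjusted p = 0.045) and was not called without replicate 2, 3 or 4 (-1.42, -1.94 and -1.46) or with the replicate block. NCOA4 read 11.5, 0, 22.5 and 38.3 CPM at 3.33 µM, all below every DMSO well, from 14 counts. Its log2 change from DMSO was -2.33 (SE 0.40, adjusted p = 1.84e-06), and it was called lower in 15 of 15 alternatives (-3.04 to -1.97), as was SLC25A37 (-3.38 to -1.33). All genes tested had a median log2 change of -2.32 at 3.33 µM, so neither gene stood apart from genes at large in the main fit.

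Genes with 3 counts or fewer over the 4 wells at 3.33 or 10 µM are given by a bound or an interval only. SLC40A1 and IREB2 had 0 counts in all 4 wells at both doses and TFRC at 10 µM. Against a floor of 3 counts over the group, SLC40A1 was at least 3.82-fold lower and IREB2 at least 7.87-fold lower than DMSO at 3.33 µM on the TMM scale, and at least 3.55-fold and 7.32-fold lower with library totals. At 10 µM the floor with library totals was 24.3 CPM, above the DMSO level of SLC40A1 and TFRC, so no fold is given for these, and IREB2 was at least 1.33-fold lower. These bounds cover counting error only, as do the intervals that follow. ACO1 had 2 counts at 10 µM, a ratio to DMSO of 0.0631 on the TMM scale (95% exact interval 0.00764 to 0.228) and 0.134 with library totals (0.0162 to 0.484). NCOA4 had 3 counts at 10 µM, with a ratio of 0.120 (0.0248 to 0.352) and 0.255 (0.0527 to 0.747) on these scales. SLC11A2 had 3 counts at 3.33 µM and 1 at 10 µM, with ratios on the TMM scale of 0.256 (0.0528 to 0.749) and 0.238 (0.00603 to 1.33).

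Ferritin was still counted well at the top doses, where its level relative to DMSO depends on the scaling between wells. FTL held 9789 counts at 3.33 µM and 2278 at 10 µM over 4 wells. Its wells read 13790, 14362, 14058 and 12852 CPM at 3.33 µM and 9166, 10043, 6635 and 9328 CPM at 10 µM, all below every DMSO well on the TMM scale. Against DMSO the log2 change was -0.54 (edgeR adjusted p = 3.15e-07) and -1.18 (adjusted p = 2.42e-18). With DESeq2 size factors the value at 10 µM was -0.29, and with library totals alone it was -0.08 and not called (adjusted p = 0.45). For FTH1 the log2 changes were -0.92 at 3.33 µM and -1.54 at 10 µM (edgeR adjusted p = 1.11e-06 and 2.53e-10), and with library totals the latter was -0.42 and not called (adjusted p = 0.099). From 3.33 to 10 µM, where 20.9% of all genes were called (5.58% higher and 15.3% lower), the log2 changes of -0.65 for FTL and -0.61 for FTH1 turned to rises of 0.21 and 0.23, neither called, with size factors. The fall of FTH1 was also lost without replicate 1, 2 or 4, with log2 changes of -0.43, -0.17 and -0.24.

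The scaling matters at 0.37 µM too, for the smaller changes. DESeq2 size factors moved the median log2 change of all genes there by 0.25, from -0.14 to 0.11. FTL, FTH1 and NCOA4 were called higher under either scaling, with log2 changes of 2.36, 1.51 and 0.88 under size factors. ACO1 then had a log2 change of -0.34 and was not called (adjusted p = 0.20).

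Position on the plate moved FTL by a small amount without any compound. Rows K and L held all treated wells, while DMSO filled columns 2 and 23. On each plate side the doses stood in the order of the columns, and no DMSO well lay in the columns between. Between the DMSO columns 1 of the 9 genes was called, where 6.10% of 11258 genes tested were, 3.30% higher and 2.81% lower. FTL was lower in column 23 by a log2 change of -0.15 (SE 0.04, edgeR adjusted p = 0.0073). Against only those 4 DMSO wells that share rows K and L with the compound, FTL stayed called from 0.014 to 0.37 µM and FTH1 at 0.12 and 0.37 µM. SLC40A1 kept its log2 changes of 1.96 and 1.91 at 0.04 and 0.12 µM in that comparison but was not called (adjusted p = 0.92 and 0.55). Each plate side was also fitted with its own DMSO column, which left fewer wells a dose. SLC40A1 at 0.04 µM then had a log2 change of 2.05 on the left and 1.74 on the right (adjusted p = 0.056 and 0.12), and TFRC at 1.11 µM one of 1.28 on the right (adjusted p = 0.16).

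The wells of a group differed by far more than counting error. The coefficient of variation over 32 DMSO wells was 8.88% for FTL, where 0.279% is the counting error of its mean of 128693 counts. It was 52.4% for SLC40A1, 48.9% for TFRC and 52.2% for SLC11A2, from means of 104.5, 89.1 and 106.8 counts, where counting error alone is 9.78, 10.6 and 9.68%. For all 9 genes the spread was 4.22 to 31.9 times the counting error. Changes of a size like the spread would not have been detectable for the low genes.

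The other genes of iron handling, 52 in 5 lists, were called about as often as genes at large at 0.37 µM. Of the 52 genes 43 passed the filter. Of these 1 rose and 1 fell at 0.12 µM (4.65%, beside 2.33% of all genes), and 7 rose and 6 fell at 0.37 µM (30.2%, beside 24.8%). At 1.11 µM 10 rose and 5 fell (34.9%, beside 23.0%). At 0.12 and 0.37 µM SLC48A1, which carries heme out of the endosome and lysosome, was the only gene called in its list. This list, of mitochondrial iron carriers and heme transporters, had 8 of 8 genes tested. SLC48A1 was also called higher at 0.04 µM (log2 change 1.44, edgeR adjusted p = 3.5e-05) but was not called at 1.11 µM (edgeR adjusted p = 0.17). Its level was 31.3 ± 8.06 CPM in DMSO and 117.6 ± 8.89 at 0.37 µM (log2 changes 1.83 at 0.12 µM and 1.91 at 0.37 µM, edgeR adjusted p = 1.07e-08 and 2.15e-10). These 8 genes had a median log2 change of 0.57 and then 0.15.

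Of the iron entry and reduction list, with 13 of 15 genes tested, 1 fell at 0.12 µM and 4 fell and 2 rose at 0.37 µM. STEAP4, a ferrireductase of the cell surface, went from 19.9 ± 8.96 CPM in DMSO to 2.84 ± 3.41 at 0.12 µM and 1.41 ± 1.66 at 0.37 µM (log2 changes -2.78 and -3.79, edgeR adjusted p = 0.014 and 7.84e-05). At 0.37 µM STEAP3, the reductase of the transferrin endosome, fell by 1.77 on the log2 scale and SLC39A8, a zinc and iron importer, fell by 3.19. PRNP, the prion protein gene, rose by 1.35. The list had a median of 0.08 and then -0.12.

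In the list of iron chaperones, sensing and ferritin turnover, with 9 of 11 genes tested, 0 were called at 0.12 µM and 2 rose at 0.37 µM. These were PCBP1, a chaperone that loads iron into ferritin, from 1511 ± 142 to 2234 ± 153 CPM, and GLRX3, an iron-sulfur glutaredoxin, from 91.7 ± 22.3 to 271.4 ± 29.6 CPM (log2 changes 0.56 and 1.57, edgeR adjusted p = 2.15e-06 and 4.49e-08). Of the list of export and systemic regulation, with 9 of 13 tested, SMAD6 and NEO1 fell at 0.37 µM (log2 changes -2.39 and -2.14), and ID1, a target of BMP signals, rose by 0.73. Of the other mRNAs known for an iron-responsive element, with 4 of 5 tested, EPAS1 (HIF-2α) rose at 0.37 µM by 0.83 (adjusted p = 0.0051). The medians at 0.37 µM were 0.25, -0.34 and 0.36, beside -0.14 for all genes.

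Patterns over the 9 group means of log2 CPM from DMSO to 1.11 µM were compared with those of 8097 genes, as a description. The means share wells, library preparation and the fall in depth at 1.11 µM. Closest to FTL were AKR1C1 (Pearson r 0.99), NQO1 (0.99) and POPDC3 (0.98). AKR1C1 stood at 118.3 CPM in DMSO, 871.0 at 0.37 µM and 63.0 at 1.11 µM. Closest to FTH1 were CSTB (0.99), GAPDH (0.99) and ATF5 (0.99), and closest to TFRC were HNRNPH3 (0.97), RUVBL1 (0.97) and RAN (0.96). FTL and FTH1 correlated at 0.94 with each other over the same means, FTL and ACO1 at -0.80, and FTL and SLC40A1 at 0.38.

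The core of the antioxidant response element, TGACNNNGC on either strand, was looked for in the RefSeq windows of 250 bases before to 50 after each start site (GRCh38.p14). Windows of 7 of the 9 genes were searched, and FTH1 and SLC25A37 had none to search. Of their 12 windows 1 matched, 1 of the 2 windows of NCOA4 with the match 23 bases from the start site, beside 13.3% of 35116 windows of genes outside chromosome 8. The window searched for NQO1, a reference gene of the NRF2 response, held 0 matches. No match says only that these letters are not in this window.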

How the data were processed

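Polyadenylated RNA of 72 wells was counted by DRUG-seq. The authors deposited whole-number counts per gene and well. Kallisto, bustools and GRCh38 are named in the submitters' processing notes. Their versions, the annotation and whether molecular identifiers were collapsed are not given in the sources used here, so intervals from counts cover counting error only. Groups came from the labels. Of 23170 genes, 38 Y-linked ones were left out. Identifiers were matched to symbols by a supplied name table.

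Counts were fitted with edgeR 4.0.16 (R 4.3.3), with TMM scaling, a minimum count of 10 in its expression filter, its robust quasi-likelihood test and Benjamini-Hochberg adjustment over all genes tested at 0.05. All 72 wells entered 1 fit. DMSO columns and the dose trend had fits of their own. Within-well measures used exact two-sided permutation tests adjusted over 10 doses (SciPy 1.17.1). Half-maximal doses came from a log-logistic curve of log2 CPM with a prior count of 2. Alternatives were DESeq2 1.42.0 (size factors and Wald test), library totals, no filter, other sets of wells, plate side, a replicate block, ferritin copies added to their parents and each replicate left out. Keeping the Y-linked genes, plate sides for the within-well measures and library totals for the bounds were added after the data were seen.

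On simulated data for 0.12 µM against DMSO (13783 genes), 64 of 100 genes changed 2-fold and 92 of 100 changed 4-fold were recovered, with 4 false calls among 160. The changed genes were drawn only from those above a minimum mean count in DMSO, so recovery among genes with fewer counts was not tried. All simulated wells took their means and spread from the DMSO wells.

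The members, the lists and the range of the dose trend were chosen with earlier results of these data known. Named besides the 9 genes are HMOX1 and NQO1, up to 4 called genes of largest change at 0.12 and 0.37 µM from each list, the top ferritin copies and the 3 genes closest in pattern to FTL, FTH1 and TFRC. Patterns used log2 of CPM plus 1 over genes with a mean of at least 10 CPM.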

Additional observations from a re-analysis of the deposited data

Results flagged for a closer look

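In groups of 4 wells, a well was singled out where its gap to the nearest other well, over the range of the group, was above the 95% critical value of Dixon's test. This held in 8 groups, and chance singles out about 1 group in 20. At 1.11 µM SLC40A1 stood at 75.8 CPM in replicate 1, beside 0 to 9.25 in the other wells. TFRC stood at 2.52 CPM in replicate 3 of that dose, beside 61.2 to 72.7. SLC11A2 stood there at 35.8 CPM in replicate 2, beside 0 to 3.09. At 3.33 µM TFRC was counted in replicate 1 alone, at 51.6 CPM, and SLC25A37 stood at 32.6 CPM in replicate 2, beside 5.62 to 9.58. IREB2 at 0.002 µM stood at 39.4 CPM in replicate 3, beside 21.7 to 24.7. The log2 ratio of FTL to FTH1 was 4.13 in replicate 4 at 0.002 µM, beside 4.48 to 4.53, and 5.40 in replicate 3 at 1.11 µM, beside 4.78 to 4.87.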

How the results depend on the processing

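FTL from 0.014 to 0.37 µM and FTH1 at 0.12 and 0.37 µM kept their calls in 16 of 16 alternatives. The number of the 9 genes called was 1 at 0.0005 µM on the left plate side (0 in the main analysis). It was 0 at 0.002 µM with the 4 DMSO wells in rows K and L as sole reference, on the right side and with the replicate block (1 in the main analysis). At 0.005 µM (1) it was 2 with the DESeq2 Wald test, with the dose and DMSO alone and without the 3.33 and 10 µM wells, and 0 with rows K and L. At 0.014 µM (2) it was 1 with rows K and L, the right side and the replicate block, and at 0.04 µM (3) it was 1 with rows K and L and with the block. At 0.37 µM (4) it was 2 with rows K and L, the left side and the block, where 1231, 2126 and 1209 of all genes were called in place of 3533. The genes lost there were NCOA4 (log2 changes 0.89, 0.67 and 0.58 against 0.63) and ACO1 (-0.62, -0.47 and -0.49 against -0.60). At 1.11 µM (4) it was 2 with rows K and L and 1 with the block. At 10 µM (5) it was 3 with library totals, and from 3.33 to 10 µM (4) it was 2 with size factors. The fit with the block tested 13343 genes and that with rows K and L 13337, against 14259 in the main fit. The block fit thus differed from the main fit in more than the block. The cause of these changes in the number called was not tested.

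Size factors reversed the step from 3.33 to 10 µM to 0.21 for FTL and 0.23 for FTH1. SLC40A1 at 1.11 µM reversed to -4.25 on the left side and to -2.22 without replicate 1, with a range of -2.22 to 0.85 over the replicates left out. Against rows K and L alone, the log2 ratio of FTL to FTH1 changed by 0.15, 0.20, 0.30, 0.35, 0.78, 0.58, 0.35 and 0.60 from 0.005 to 10 µM. None of these passed. With 4 wells against 4 the exact permutation test has few splits, so even full separation passes the adjustment only if most doses show it. At 0.12, 0.37 and 1.11 µM all 4 wells lay above the 4 DMSO wells, and the adjusted p of that test was still 0.095. It thus cannot decide on the ratio at these doses. The change in ferritin share at 0.0005 µM was 0.20 percentage points and did not pass either. Within each plate side, tried after seeing the data, the ratio no longer passed on the left at 0.005 and 3.33 µM (0.18 and 0.18) and reversed to -0.32 on the right at 10 µM. The share at 0.0005 µM was higher by 0.097 on the right and did not pass.

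Leaving out each replicate gave 0 to 1 genes called at 0.002 µM and 2 to 3 at 0.37 µM. Between doses it gave 1 to 2 from 0.12 to 0.37 µM, 3 to 5 from 0.37 to 1.11 µM and 3 to 5 from 1.11 to 3.33 µM. The change in log2 ratio ran from 0.072 to 0.20 at 0.002 µM and from 0.13 to 1.29 at 10 µM. The change in share ran from 0.17 to 0.39 at 0.0005 µM and from -0.19 to -0.045 at 10 µM, in percentage points. The half-maximal dose of FTH1 ran from 11.7 to 65.2 nM.

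Replicate numbers did not pair the wells: over 84 same-numbered pairs the mean correlation of deviations was -0.0024, and 0 pairs were over 0.1. Depth limits genes with 3 counts or fewer at 3.33 and 10 µM to bounds or intervals.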
